A study of Mus musculus with 64 samples.

Results

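The genes described here encode the proteins that dock, prime and fuse synaptic vesicles: the SNAREs, their calcium sensors and regulators, and the marker proteins of the vesicle itself. They were taken by symbol, as every gene named Syt, Stx, Stxbp, Vamp, Syn, Syp, Sv2, Rab3, Cplx, Rims or Unc13 with its number or letter, plus Snap23, Snap25, Snap29, Snap47 and Snap91. The rule found 70 genes of the 23313 listed, in 13 families. Each member was classed as neuronal (40 genes) or general (30 genes) by what its product is known for, and the levels are in TPM, a transcript abundance per length that is scaled to the same total in each cell.

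RNA of 64 single cells was measured. The cells were sorted for red fluorescence from the dissected dentate gyrus of Dcx-dsRed mice aged 6 to 7 weeks, in which the doublecortin promoter drives the dsRed reporter, and were captured with the Fluidigm C1 system. The labels call every cell an immature neuron and give 1 group, with no treatment, stage or animal, so the 64 cells stand as 1 biological sample. They are not replicates, and no test was made. Shares of cells carry exact Clopper-Pearson 95% intervals, which cover counting error only. For a count of 0 the text gives the share that 3 cells would make, as a limit on cells in which the gene is detected and not on cells that express it.

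The label did not describe all of the libraries. Clustering without the 70 release genes gave 3 clusters. The first, of 20 cells, scored highest on the pan-neuronal marker list and is called neuron-like, and the dentate granule list scored nearly as high in it. The summed pan-neuronal level overlapped between clusters, at 585 to 2966 TPM in neuron-like, 134 to 2278 TPM in oligodendrocyte-like and 34.6 to 4036 TPM in astrocyte-like cells. The second, of 32 cells, had all 12 oligodendrocyte markers in at least 50% of its cells and is called oligodendrocyte-like. The third, of 12 cells, had its largest mean difference from the other cells on the astrocyte or stem cell list (3.46 log2 units) and is called astrocyte-like. It had 11 of the 12 markers of that list in at least 50% of its cells, but neuron-like cells had 10 and oligodendrocyte-like cells 9. The summed level of the oligodendrocyte list ran from 22139 to 134918 TPM in oligodendrocyte-like cells, from 2.36 to 7070 TPM in neuron-like cells and from 12.3 to 27322 TPM in astrocyte-like cells. That of the astrocyte list ran from 2180 to 36765 TPM in astrocyte-like cells, from 179 to 13803 TPM in neuron-like cells and from 12.8 to 25681 TPM in oligodendrocyte-like cells. Dcx itself, the gene of the reporter's promoter, reached 1 TPM in 24 of 64 cells, of which 6 were neuron-like, 10 oligodendrocyte-like and 8 astrocyte-like. In 18 libraries the markers of a second cluster also scored no lower than in the lowest-scoring 25% of the cells in that other cluster. Of these, 13 were oligodendrocyte-like, and 10 of the 13 held the pan-neuronal list. By estimate a cell had 469368 to 4015673 reads, with 21 deeper and 43 shallower libraries and none between 1333813 and 1921111 reads. Some genes that every cell uses were also at 0 in places. Hprt was listed at 0 in 16 cells, Rplp0 and Nsf in 2 each, and Tpt1 and Cltc in 1 each. Actb, Gapdh, Ppia and Ywhaz, with higher medians, were at 0 in no cell. A 0 therefore means only that a gene is listed at 0.

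Release of transmitter rests on a bundle of SNARE helices. Synaptobrevin (Vamp2) on the vesicle pairs with syntaxin 1a (Stx1a) and Snap25 on the plasma membrane, and the bundle pulls the membranes together. Munc13 (Unc13) and RIM prepare the bundle, complexin holds it, and synaptotagmin 1 lets it close when calcium enters. Paralogues of the same proteins, such as Snap23, Vamp3 and the endosomal and Golgi syntaxins, serve membrane traffic in all cells. In the adult dentate gyrus, new granule neurons add these proteins as they form their output synapses.

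Promoter windows of 4 members are shown because the members differed in where they were highest in these cells. Syn1 and Syp encode vesicle proteins of neurons. Syp had medians of 323 and 28.4 TPM in neuron-like and oligodendrocyte-like cells. Syn1 differed less, with medians of 29.6 and 20.0 TPM. Its difference of mean log2(TPM + 1) was 0.93, below the 1 that is counted as higher in the cluster comparison. Snap23 and Syt11 had higher levels in oligodendrocyte-like than in neuron-like cells. Each window is 300 bases around the first listed start of the gene, read 5′ to 3′ on the strand of the gene, from RefSeq on GRCm38.p6. Capitals mark matches, on either strand, to TTCAGCACC (the left part of RE1, the site of the repressor REST), to TGACGTCA (the cyclic AMP response element) and to GGGCGG (the GC box).
Syn1, chrX:20920869-20921168, minus strand: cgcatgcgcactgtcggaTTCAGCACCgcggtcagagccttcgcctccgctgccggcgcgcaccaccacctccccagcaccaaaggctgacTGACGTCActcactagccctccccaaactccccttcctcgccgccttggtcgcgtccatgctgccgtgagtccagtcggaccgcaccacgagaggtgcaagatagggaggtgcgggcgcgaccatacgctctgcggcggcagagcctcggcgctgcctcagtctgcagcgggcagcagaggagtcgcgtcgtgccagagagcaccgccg
Syp, chrX:7638330-7638629, plus strand: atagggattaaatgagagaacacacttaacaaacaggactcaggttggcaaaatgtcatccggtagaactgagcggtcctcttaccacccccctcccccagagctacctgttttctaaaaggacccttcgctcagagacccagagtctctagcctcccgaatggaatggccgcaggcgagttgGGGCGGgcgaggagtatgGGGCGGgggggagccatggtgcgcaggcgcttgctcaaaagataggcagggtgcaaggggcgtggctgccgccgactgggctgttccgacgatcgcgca
Snap23, chr2:120567421-120567720, plus strand: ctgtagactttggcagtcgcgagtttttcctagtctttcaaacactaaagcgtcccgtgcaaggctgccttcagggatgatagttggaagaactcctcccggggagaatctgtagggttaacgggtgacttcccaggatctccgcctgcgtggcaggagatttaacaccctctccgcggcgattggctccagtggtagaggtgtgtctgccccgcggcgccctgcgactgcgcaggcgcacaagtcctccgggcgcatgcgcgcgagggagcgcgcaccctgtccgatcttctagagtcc
Syt11, chr3:88772550-88772849, minus strand: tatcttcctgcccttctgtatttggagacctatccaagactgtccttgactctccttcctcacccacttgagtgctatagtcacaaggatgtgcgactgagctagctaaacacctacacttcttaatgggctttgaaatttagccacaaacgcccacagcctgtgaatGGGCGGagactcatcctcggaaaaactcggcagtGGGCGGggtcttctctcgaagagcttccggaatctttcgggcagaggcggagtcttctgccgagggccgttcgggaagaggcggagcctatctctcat
Of the 70 members, 53 had a window in the RefSeq table. TTCAGCACC was in the windows of 2 of these 53, Syn1 and Unc13a (3.77%), and in 0.574% of the windows of 8185 genes detected in at least 10% of the cells. TGACGTCA was in 1 of the 53, Syn1 (1.89%), against 3.90% of the 8185. GGGCGG was in 42 of the 53 (79.2%), against 70.4% of the 8185 and 38.2% of all 27025 genes of the table. By class, 24 of 28 neuronal and 18 of 25 general members had GGGCGG. These are matches of letters only. No factor was measured at these windows.

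Release genes were widely present. At a threshold of 1 TPM, 62 of the 70 members were detected in at least 1 cell and 8 in none. Of all 23313 genes, 8593 were detected in none. In at least 50% of cells, 28 of 70 members (40%) were detected, while 19% of all genes were. At a threshold of 10 TPM the 28 became 17. The 28 at 1 TPM comprised 17 of 40 neuronal and 11 of 30 general members. Snap25 and Syt11 were detected in all 64 cells, Stxbp2 in 62 and Cplx2 in 61. Neuronal members held 79.5% of the members' summed TPM, of which most was Snap25 and Syt11. At the other end, Syt2, Syt8, Syt9, Cplx4, Stx11, Rims3 and Rims4 were listed at 0 in every cell, and 0 of 64 cells allows detection in up to 4.69%. Sv2b never exceeded 0.62 TPM, and Cplx3 and Unc13d were each detected in 1 cell.

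**Figure D1:**
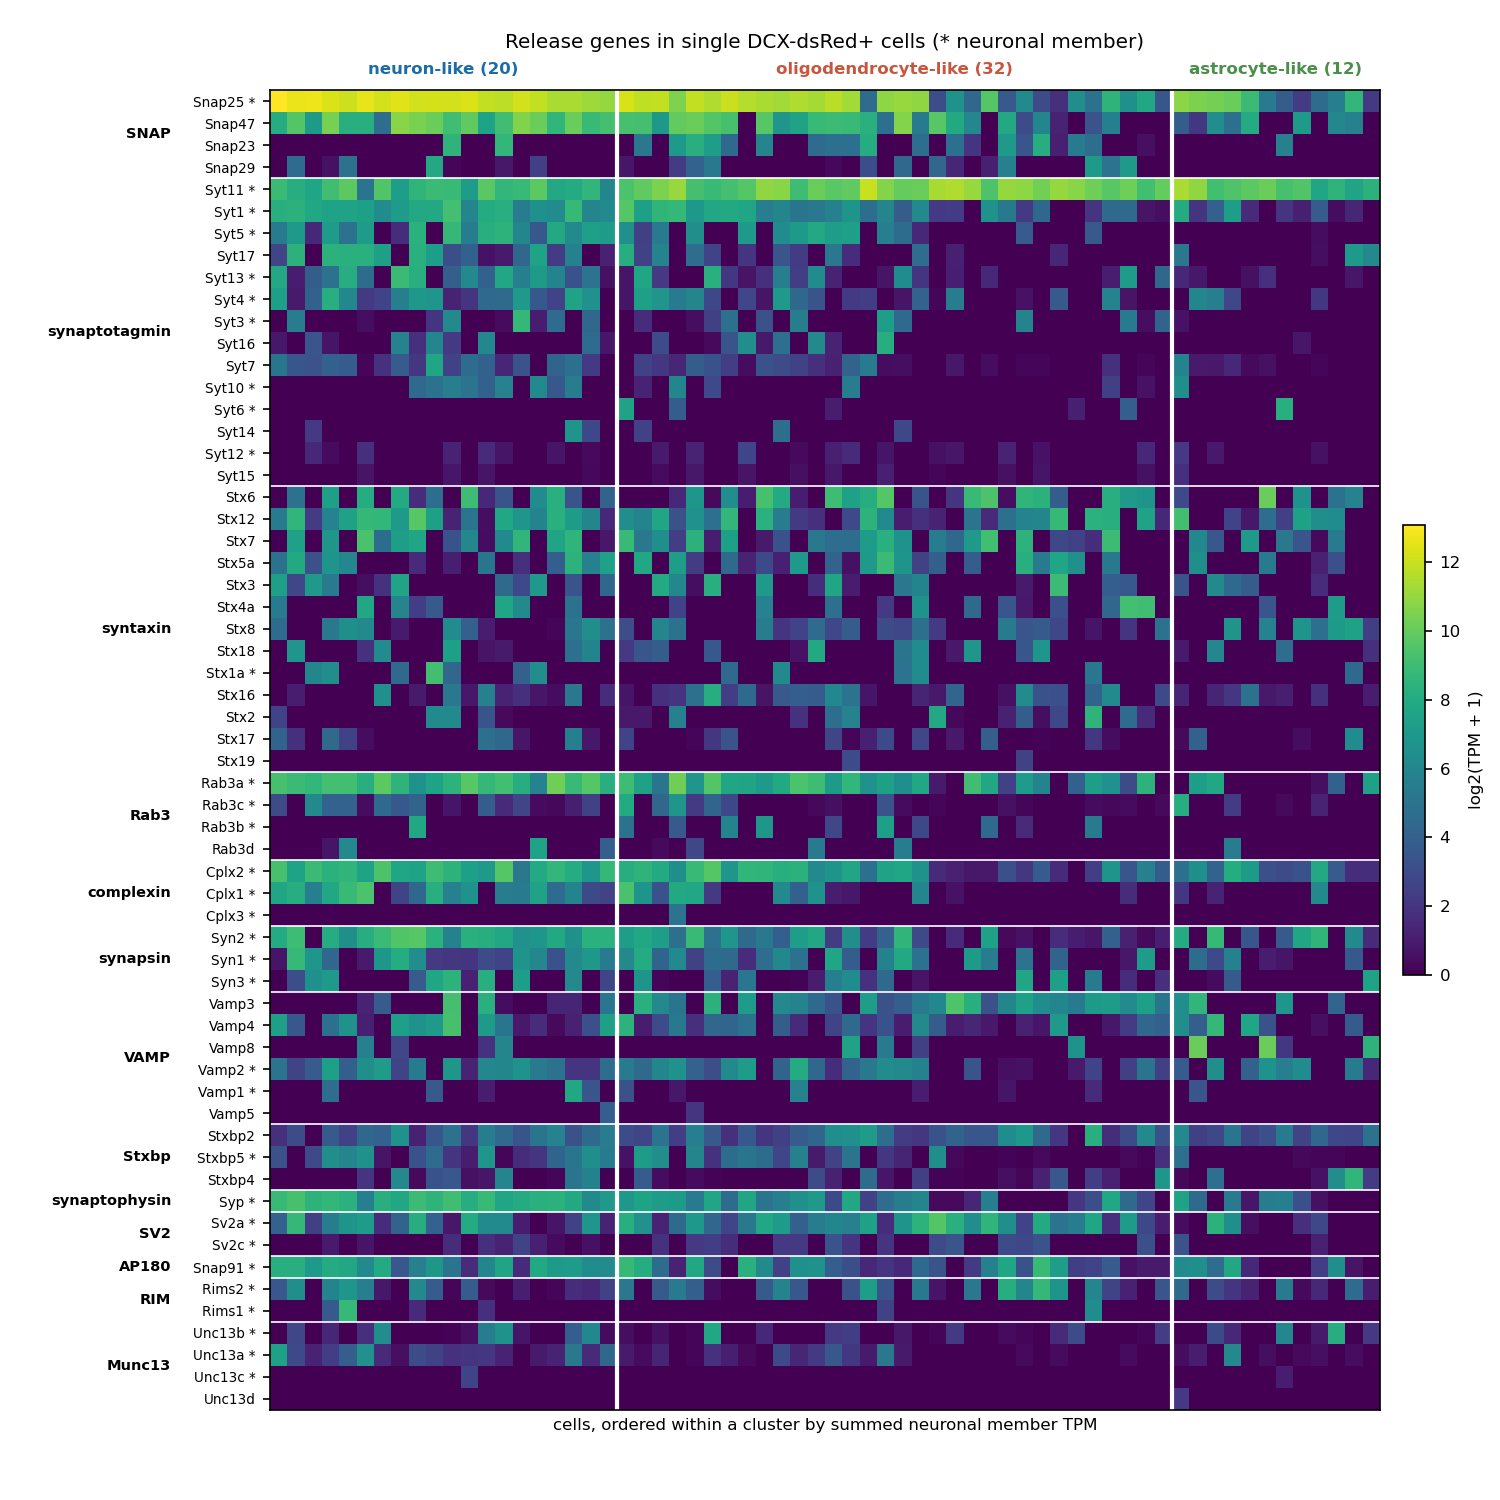
Level of 60 detected release genes as log2(TPM + 1), by colour, in each of the 64 cells. Rows are genes grouped by family, with an asterisk on neuronal members, and columns are cells grouped by cluster and ordered within it by the summed neuronal TPM. The Snap25 and Syt11 rows are above 1 TPM in all 64 columns, and most rows of the syntaxin family are patchy in all 3 clusters.

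A cell had 14 to 42 members detected, with a median of 29. The median was 33 in neuron-like, 28 in oligodendrocyte-like and 17.5 in astrocyte-like cells. Neuron-like cells had a narrower range, from 26 to 42, while oligodendrocyte-like cells ranged from 14 to 41 and overlapped both other clusters. All genes followed the same order, with medians of 5502, 5232 and 4339 genes detected per cell. Deeper libraries had a median of 34 members and shallower ones 28, so depth moved with the count, and its part in the result was not tested. The summed TPM of the neuronal members had a median of 8457 in neuron-like cells (3740 to 12770), 4610 in oligodendrocyte-like cells (1122 to 9926) and 1255 in astrocyte-like cells (725 to 5805). Without Snap25 and Syt11, the medians were 2797, 1208 and 469.5 TPM, in the same order.

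Among the plasma membrane SNAREs, Snap25 was by far the most abundant. It ranged from 2.46 to 8717 TPM over all cells, with a median of 2216 TPM, while 1 read of it was worth 0.281 to 2.83 TPM depending on the library. Neuron-like cells lay between 2047 and 8717 TPM (median 4648). Oligodendrocyte-like cells lay between 2.46 and 5118 TPM (median 1709.9), and 14 of the 32 were within the neuron-like range. Astrocyte-like cells lay between 3.62 and 1781 TPM (median 226), so all 12 were below the lowest neuron-like cell. Snap25 supplied 83.8% of its family's TPM and 37.7% of the TPM of all 70 members.

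Snap47, a general relative of Snap25 found on many membranes, was the next in the family. It was detected in 54 cells, with medians of 571 TPM in neuron-like, 155 TPM in oligodendrocyte-like and 20.0 TPM in astrocyte-like cells. Although classed as general, it had the same order of clusters as Snap25. Snap23, the counterpart of Snap25 in most non-neuronal cells, had another order. Snap23 reached 1 TPM in 19 of 32 oligodendrocyte-like cells (59.4%, interval 40.6% to 76.3%), in 2 of 20 neuron-like cells and in 1 of 12 astrocyte-like cells, with a highest value of 405 TPM, in a neuron-like cell. Snap25 was above Snap23 in 60 of 64 cells. In oligodendrocyte-like cells that count was 29 of 32, so Snap23 was the higher one in 3 cells there and in 1 astrocyte-like cell. Snap29, which serves autophagosomes, was detected in 16 cells, none of them astrocyte-like, and 0 of 12 allows detection in up to 25%.

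Stx1a, a plasma membrane syntaxin of transmitter release, was sparse. It was detected in 13 cells (7 neuron-like, 5 oligodendrocyte-like and 1 astrocyte-like), with a highest value of 557 TPM. In Stx1a, 1 read was worth 0.274 to 2.76 TPM, so the threshold of 1 TPM is below 1 read in part of the libraries.

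The syntaxins of endosomes and the Golgi were more often detected. Stx12, of recycling endosomes, was detected in 53 cells with medians of 125, 29.6 and 4.88 TPM in neuron-like, oligodendrocyte-like and astrocyte-like cells. Stx7, of late endosomes, was detected in 41 cells, Stx6, of the trans-Golgi network, in 38, and Stx5a, of the early Golgi, in 37. Stx6 had the highest summed TPM of the family, at 22.7% of it. Stx12 was above Stx1a in 47 of 64 cells and below it in 9. Of the other plasma membrane syntaxins, Stx3 was detected in 28, Stx4a in 21 and Stx2 in 15 cells. The remaining syntaxins, Stx8, Stx16, Stx18, Stx17 and Stx19, were detected in 36, 34, 19, 18 and 2 cells.

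Among the vesicle SNAREs, Vamp2 and Vamp3 had opposite orders in the neuron-like and oligodendrocyte-like clusters. Vamp2, synaptobrevin of synaptic vesicles, was detected in 49 cells, with medians of 30.3, 12.9 and 13.9 TPM in neuron-like, oligodendrocyte-like and astrocyte-like cells and a highest value of 269 TPM. Vamp3, cellubrevin of recycling vesicles, was detected in 38 cells, of which 27 were oligodendrocyte-like (27 of 32), 7 neuron-like (7 of 20) and 4 astrocyte-like. Its median was 62.6 TPM in oligodendrocyte-like cells and 0 in both other clusters, and its highest value was 716 TPM. Within a cell, Vamp2 was above Vamp3 in 16 of 20 neuron-like cells, while Vamp3 was above Vamp2 in 22 of 32 oligodendrocyte-like cells. Vamp4, of the trans-Golgi network, was detected in 45 cells, and Vamp2 was above it in 33 and below it in 28. Vamp1, the other synaptobrevin, was detected in 9 cells and Vamp5 in 2. Vamp8, endobrevin, was detected in 12 cells, 4 in each cluster, and reached 1110 TPM in an astrocyte-like cell.

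**Figure D2:**
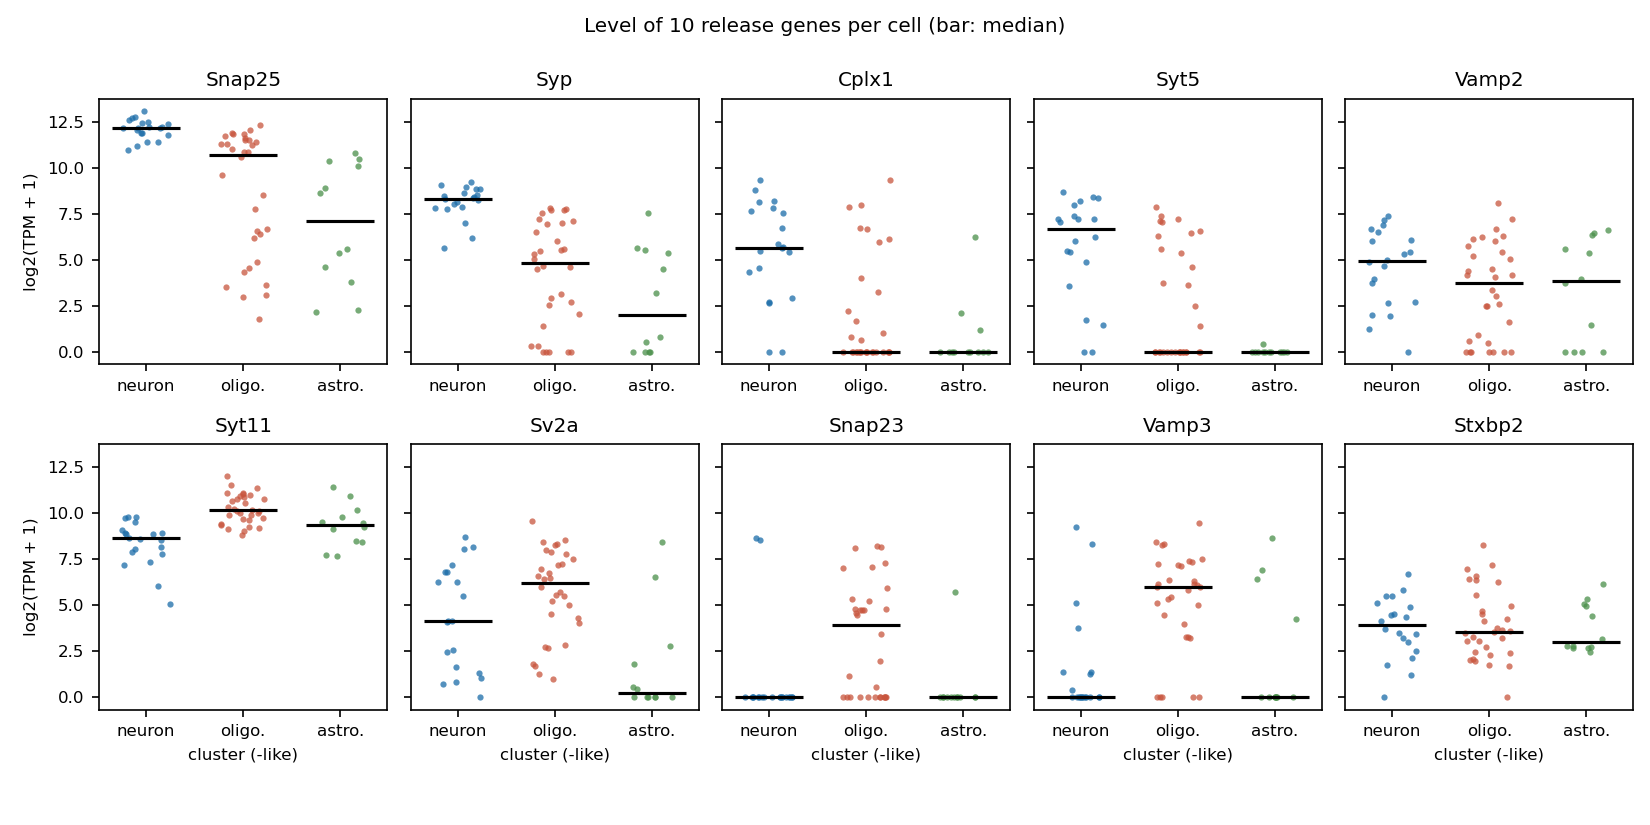
Level of 10 release genes as log2(TPM + 1) in each neuron-like, oligodendrocyte-like and astrocyte-like cell, with a bar at the median. Snap25, Syp, Cplx1 and Syt5 have their highest medians in neuron-like cells, while Syt11, Sv2a, Snap23 and Vamp3 have theirs in oligodendrocyte-like cells.

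Of the synaptotagmins, Syt11 and Syt1 had the highest summed TPM. Syt1, the fast calcium sensor of release, was detected in 56 cells. It ranged from 45.9 to 569 TPM in neuron-like cells (median 184), from 0 to 801 TPM in oligodendrocyte-like cells (median 37.7) and from 0 to 264 TPM in astrocyte-like cells (median 2.49). Syt2 and Syt9, the other fast sensors, were listed at 0 in every cell. Syt11, which does not bind calcium, ranged from 33.1 to 894 TPM in neuron-like cells (median 396), from 445 to 4087 TPM in oligodendrocyte-like cells (median 1146) and from 199 to 2729 TPM in astrocyte-like cells (median 663). Thus 22 of 32 oligodendrocyte-like cells were above the highest neuron-like cell, although the ranges overlap. Syt11 was above Syt1 in 57 of 64 cells, and the exceptions were 6 neuron-like cells and 1 oligodendrocyte-like cell.

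Of the other synaptotagmins, Syt4, Syt5, Syt7, Syt13 and Syt17 were detected in a larger share of neuron-like cells than of either other cluster. Syt5 was detected in 18 of 20 neuron-like, 15 of 32 oligodendrocyte-like and 0 of 12 astrocyte-like cells, and 0 of 12 allows detection in up to 25%. Syt13 was detected in 17, 16 and 2 cells of the clusters in that order, Syt4 in 18, 15 and 4, and Syt7, a slower calcium sensor, in 17, 14 and 2. Syt17 was detected in 15, 13 and 3 cells. Syt6 was detected in 5 of 32 oligodendrocyte-like cells (15.6%) and 1 of 12 astrocyte-like cells (8.33%). It was listed at 0 in all 20 neuron-like cells, which allows detection in up to 15%. Syt3, Syt10, Syt12, Syt14, Syt15 and Syt16 were detected in 2 to 17 cells each. Of these, all but Syt15 were also detected in their largest share of cells in the neuron-like cluster. Over all genes, that cluster had the highest median number of genes detected per cell as well.

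Among the proteins that hold and prepare the SNARE bundle, Cplx2, a complexin, had the highest summed TPM. It was detected in 61 cells, with medians of 300.1, 94.7 and 14.6 TPM in neuron-like, oligodendrocyte-like and astrocyte-like cells. Cplx1 was detected in 18 of 20 neuron-like, 12 of 32 oligodendrocyte-like and 3 of 12 astrocyte-like cells, with medians of 50.5, 0 and 0 TPM. Cplx2 was above Cplx1 in 56 of 64 cells. Stxbp2 (Munc18-2), a syntaxin partner known from secretion by cytotoxic lymphocytes, was detected in 62 cells. Its medians of 14.2, 10.9 and 6.98 TPM lay close together, but in the 21 deeper libraries its median was 29.1 TPM and its lowest value 8.81 TPM, against a median of 7.10 TPM in the 43 shallower ones. Stxbp5 (tomosyn), an inhibitor of SNARE assembly, was detected in 31 cells and Stxbp4 in 21.

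The priming proteins were detected at low levels. Unc13a (Munc13-1) was detected in 17 of 20 neuron-like, 9 of 32 oligodendrocyte-like and 2 of 12 astrocyte-like cells, with a neuron-like median of 3.11 TPM. Unc13b (Munc13-2) was detected in 21 cells and had the larger summed TPM of the pair. Within a cell, however, Unc13a was above Unc13b in 35 of 64 cells and below it in 21. In neuron-like cells these counts were 15 and 5 of 20. Unc13c was detected in 2 cells. Rims2, an active zone scaffold, was detected in 39 cells, with medians of 1.98, 9.63 and 1.67 TPM in neuron-like, oligodendrocyte-like and astrocyte-like cells. Rims1 was detected in 6 cells. The Munc13 and RIM families held 0.366% and 0.605% of the members' TPM.

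Among the vesicle proteins, Syp (synaptophysin) had a similar order to Snap25. It ranged from 50.03 to 616 TPM in neuron-like cells (median 323), from 0 to 226 TPM in oligodendrocyte-like cells (median 28.4) and from 0 to 185 TPM in astrocyte-like cells (median 4.54). All 20 neuron-like cells were above 1 TPM, and 11 oligodendrocyte-like cells and 1 astrocyte-like cell were within their range. Syn2, a synapsin that tethers vesicles in reserve, was detected in 52 cells with medians of 278, 14.8 and 11.2 TPM. Syn1 was detected in 42 and Syn3 in 26 cells, and Syn2 was above Syn1 in 46 of 64. Sv2a, a transporter-like vesicle protein and the target of the drug levetiracetam, had its highest median in oligodendrocyte-like cells, at 73.3 TPM, against 16.6 TPM in neuron-like and 0.18 TPM in astrocyte-like cells. It was detected in 31 of 32, 17 of 20 and 4 of 12 cells of these clusters. Sv2c was detected in 17 of 21 deeper but in 5 of 43 shallower libraries, with a highest value of 10.04 TPM.

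Rab3a, the small GTPase of synaptic vesicles, was detected in all 20 neuron-like, in 28 of 32 oligodendrocyte-like and in 4 of 12 astrocyte-like cells. Its medians were 437, 156 and 0 TPM. It held 89.9% of the Rab3 family's TPM. Rab3c was detected in 22, Rab3b in 11 and Rab3d, the general member, in 7 cells. Of the 11 cells with Rab3b, 10 were oligodendrocyte-like. Snap91 (AP180), an adaptor that helps rebuild vesicles by clathrin-mediated uptake and no SNARE despite its symbol, was detected in 54 cells with medians of 127, 9.28 and 3.09 TPM.

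Several members were summed from more than 1 transcript, with the split as estimated by the submitters' tools. The 3 listed transcripts of Syt1 held 58.4%, 35.9% and 5.70% of its TPM, the 2 of Rab3a 71.0% and 29.03%, the 2 of Syn1 51.2% and 48.8%, and the 2 of Syn2 83.1% and 16.9%. The Snap25 value comes from a single listed transcript, so its splice forms cannot be told apart here.

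Within a family, neuronal and general members differed in which dominated. The neuronal share of family TPM was computed per cell in 5 of the families with members of both classes. The syntaxin and Stxbp families also have both classes and were left out, so the 5 do not cover every such family. Its median over cells was 83.7% for the SNAP family, 98.7% for the synaptotagmins and 100% for Rab3 and Munc13. It was 14.0% for the VAMP family. Rab3 and Munc13 each have 1 general member, Rab3d, detected in 7 cells, and Unc13d, detected in 1. A cell entered at any family TPM above 0. In the VAMP family the median was 51.1% in neuron-like, 8.66% in oligodendrocyte-like and 6.87% in astrocyte-like cells. In the SNAP family the medians were 83.5%, 81.8% and 95.8%. The share was over 50% in all 20 neuron-like cells, but in 23 of 32 oligodendrocyte-like and 9 of 12 astrocyte-like cells.

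The synaptotagmin share turned on 1 gene. With Syt11 counted as general, the synaptotagmin median was 19.1%. Stxbp3a, a general member of the Stxbp family that the symbol rule leaves out, was detected in 27 of 32 oligodendrocyte-like cells with a median of 103.9 TPM, and in 7 of 20 neuron-like cells.

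**Figure D3:**
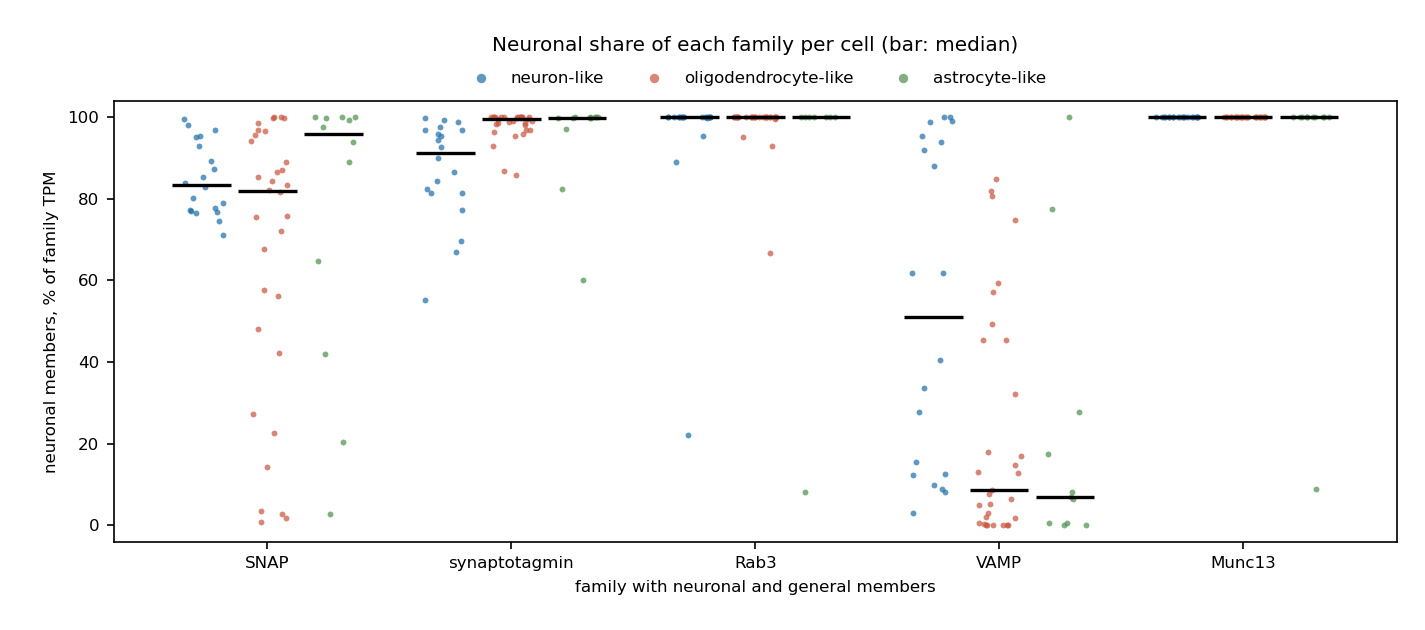
TPM of the neuronal members as a percent of all TPM of the family, in each cell with the family above 0. Shown are 5 of the families with members of both classes, by cluster, with a bar at the median. Rab3 and Munc13 points mostly at 100%, and VAMP points spread widely, with a median of 51.1% in neuron-like cells.

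Paralogues that share a role were also counted together. A synaptobrevin (Vamp1 or Vamp2) was detected in all 20 neuron-like cells, in 22 of 32 oligodendrocyte-like cells and in 9 of 12 astrocyte-like cells, 51 of 64 cells in all. A fast sensor was detected in 56 cells, in each case Syt1. Cplx1 or Cplx2 was detected in 61 cells, all of which had Cplx2. A Munc13 (Unc13a, Unc13b or Unc13c) was detected in 37 cells and Rims1 or Rims2 in 40.

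The clusters were then compared by the difference of mean log2(TPM + 1), with a difference of at least 1 counted as higher. This scale understates the differences of low genes. The 53 members detected in at least 10% of the cells entered. Since the clusters hold cells of 1 biological sample, the differences describe these cells. Of the 53, 25 were higher in neuron-like than in oligodendrocyte-like cells, a share of 47.2%, while 19.1% of the 10732 genes compared were. They were 20 of 30 neuronal members and 5 of 23 general members, namely Snap47, Stx12, Syt7, Syt17 and Vamp4. The median difference was 0.72 over the members and 0.15 over all genes. With a pseudocount of 10 the count was 15 of 53 (7.64% of all genes), and with 500 variable genes in the clustering no neuron-like cluster formed.

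The largest of these differences were those of Syp (3.88 log2 units, with means of 8.13 and 4.25 and SDs over cells of 0.92 and 2.84) and Syn2 (3.70). Snap25 followed with 3.49 and Cplx1 with 3.47. Syt5 differed by 3.04, Syt17 by 3.03, Snap47 by 2.96, Syt13 by 2.89 and Cplx2 by 2.64. For Syp and Snap25 the neuron-like cells varied little, with an SD of 0.55 for Snap25, while the oligodendrocyte-like cells varied widely, with an SD of 3.45.

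In the other direction, 5 members were higher in oligodendrocyte-like cells (9.43%), against 12.8% of all genes. Vamp3 differed by -3.65 log2 units (neuron-like minus oligodendrocyte-like), Snap23 by -2.34, Syt11 by -1.90, Sv2a by -1.34 and Rab3b by -1.04. The 5 were 3 of 30 neuronal members (10%) and 2 of 23 general members (8.70%), both below the share over all genes. The 2 general members, Vamp3 and Snap23, are the paralogues of Vamp2 and Snap25 known from non-neuronal cells. Without the 18 libraries with a second marker list, the counts were 25 higher in neuron-like and 7 higher in oligodendrocyte-like cells. No share over all genes is given for the remaining libraries, so these 2 counts cannot be set against it. With a pseudocount of 10, 2 members were higher in oligodendrocyte-like cells (5.59% of all genes).

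Against the astrocyte-like cells, 34 of 53 members were higher in neuron-like cells (64.2%), while 34% of all genes were, and 1 member, Vamp8, was higher in astrocyte-like cells, against 9.83% of all genes. With a pseudocount of 10 the 34 became 20 (15.6% of all genes). The count higher in astrocyte-like cells was 2 to 4 in shallower libraries, without libraries with a second marker list and in 2 other clusterings. No share over all genes is given for those settings. The 34 were 22 of 30 neuronal and 12 of 23 general members. The largest difference was that of Rab3a (6.38 log2 units, with means of 8.65 and 2.27 and SDs of 1.05 and 3.38). Syt5 differed by 5.60, Snap47 by 5.38, Syp by 5.36 and Snap25 by 5.17. Syt1, Cplx1, Syt13, Syn2 and Cplx2 followed with 4.71, 4.69, 4.40, 3.55 and 3.51. For Syt5, no astrocyte-like cell exceeded 0.35 TPM. Both comparisons share the neuron-like cells and are not independent. The median difference over all genes was 0.48, and astrocyte-like cells also had fewer genes detected, whose part in these differences was not tested.

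In a comparison added after the others, 26 of 53 members were higher in oligodendrocyte-like than in astrocyte-like cells (28.7% of all genes), and Stx8 and Vamp8 were higher in astrocyte-like cells (8.9% of all genes).

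**Figure D4:**
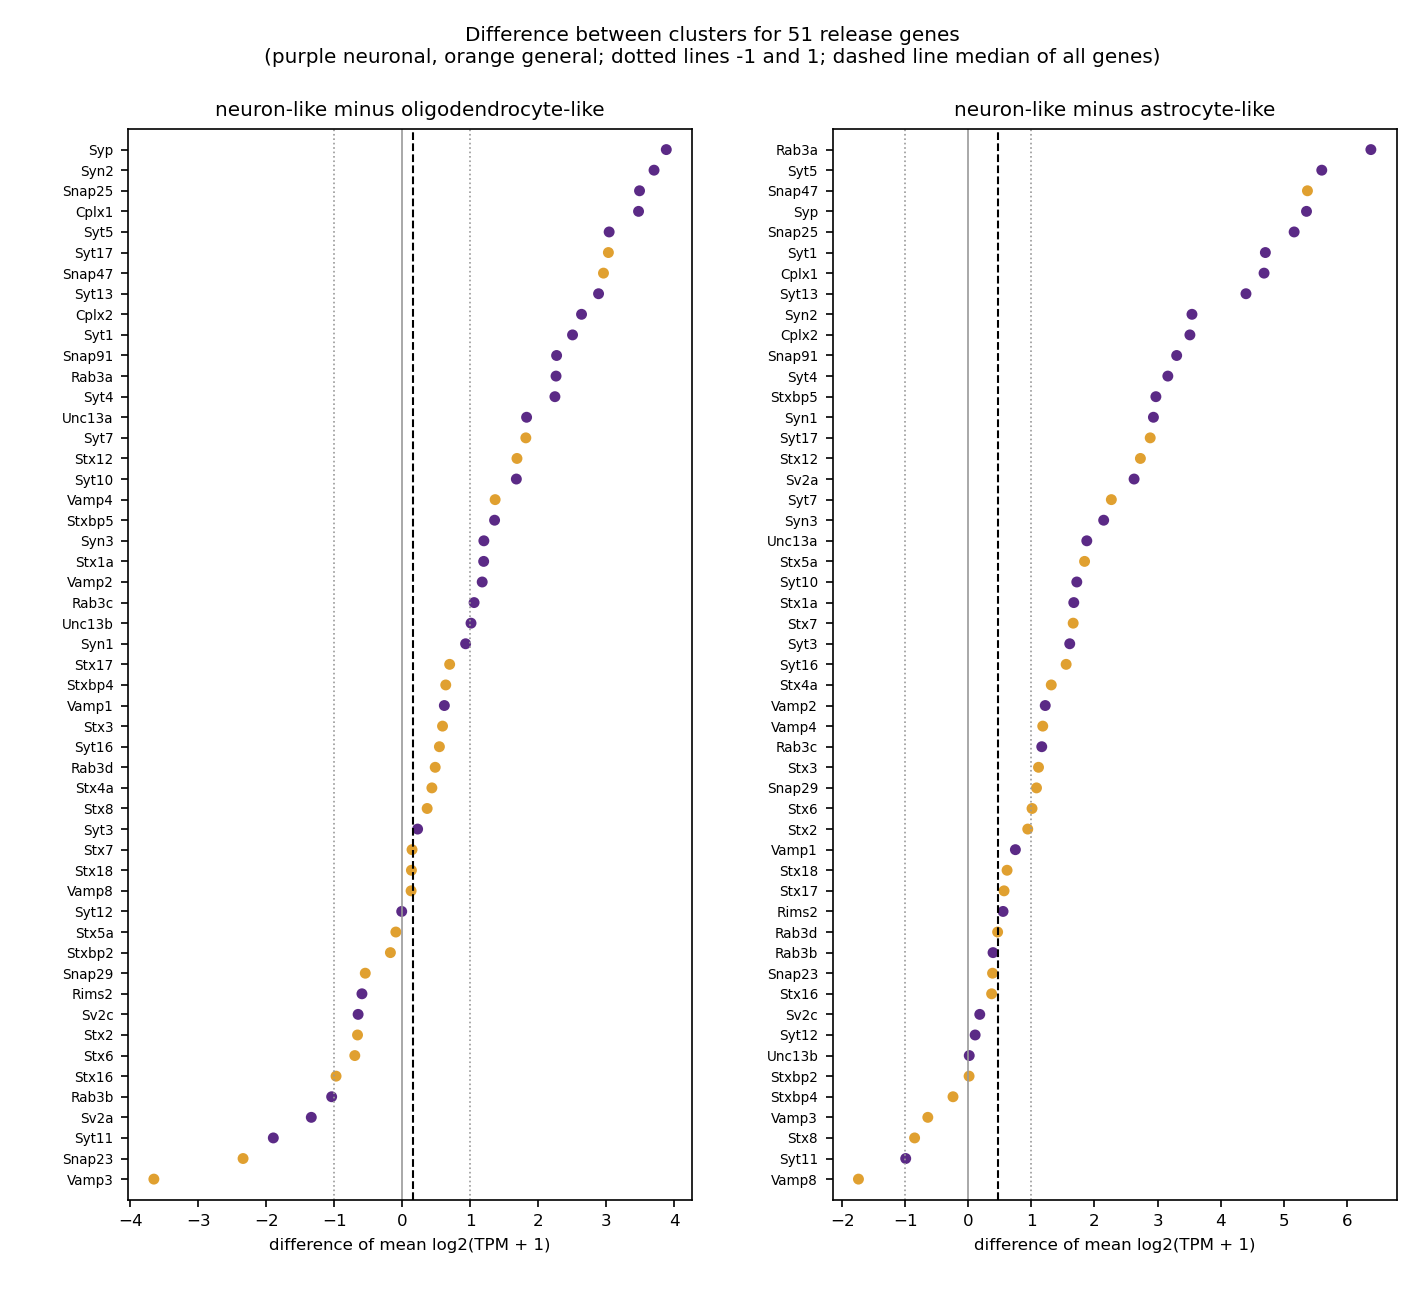
Difference of mean log2(TPM + 1) between neuron-like and oligodendrocyte-like cells (left) and between neuron-like and astrocyte-like cells (right) for 51 of the 53 release genes compared, with neuronal members in purple and general members in orange. The dashed line is the median of all genes (0.15 and 0.48) and the dotted lines are -1 and 1. Syp and Rab3a are at the top, Vamp3 and Vamp8 at the bottom.

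Other genes of the pathway were taken from 6 lists. Unlike the members, they were not left out of the clustering, so any among its variable genes helped to define the clusters. Their differences between clusters may therefore be built in by the clustering in part, which was not tested. All 4 genes that take spent SNARE bundles apart (Nsf and its adaptors Napa, Napb and Napg) were detected in at least 50% of cells. Nsf, the ATPase, had medians of 661, 152 and 16.4 TPM in neuron-like, oligodendrocyte-like and astrocyte-like cells, and Napb, the neuronal adaptor, had 110.4, 9.35 and 2.34 TPM. Nsf, Napb and Napg were higher in neuron-like than in oligodendrocyte-like cells (3 of 4, against 19.1% of all genes), while Napa was not, with medians of 457 and 483 TPM.

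Of 10 active zone scaffold genes, 6 (60%) were higher in neuron-like than in oligodendrocyte-like cells and none was lower, against 19.1% and 12.8% of all genes. Ppfia2 (liprin alpha 2) had medians of 422 and 95.6 TPM, Erc2 had 96.8 and 13.5 TPM, and Pclo (piccolo) had 29.1 and 6.67 TPM. Of the genes of vesicle filling and of vesicle membrane, 3 of the 8 compared (37.5%) were higher in neuron-like cells (Slc17a7, the glutamate transporter VGLUT1, Syngr3 and Synpr) and 1, Scamp5, was lower. Slc17a7 was detected in 18 of 20 neuron-like and 18 of 32 oligodendrocyte-like cells. Slc32a1, the GABA transporter of vesicles, reached 1 TPM in no cell.

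Of 11 endocytosis genes, 4 were higher in neuron-like cells (Dnm1, Synj1, Amph and Sh3gl2), a share of 36.4% against 19.1% of all genes. Sh3gl3, an endophilin, was higher in oligodendrocyte-like cells, where it was detected in 24 of 32, against 1 of 20 neuron-like cells. Of the 6 compared calcium or Rab effectors, 4 (66.7%) were higher in neuron-like cells, against 19.1% of all genes. They were Rph3a, Doc2b, Rab27a and Rab27b. Sytl2 alone (16.7%) was higher in oligodendrocyte-like cells, against 12.8% of all genes. It was detected in 22 of 32 oligodendrocyte-like and 0 of 20 neuron-like cells, and 0 of 20 allows detection in up to 15%. Of the 10 SNAREs of constitutive traffic, 2 were higher in neuron-like cells (Sec22b and Bnip1) and 1, Bet1, in oligodendrocyte-like cells, which is near the shares over all genes.

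Within the oligodendrocyte-like cluster the neuronal members varied together with other neuronal genes. The score of a cell was its mean log2(TPM + 1) over the 17 neuronal members detected in at least 50% of cells. Over the 32 oligodendrocyte-like cells this score had a Pearson r of 0.878 (Spearman rho 0.883) with the score of the 12 pan-neuronal markers, none of which is a release gene. The r was 0.960 in the 12 deeper and 0.836 in the 20 shallower libraries, and 0.882 without the 2 cells farthest from the median. With the 12 myelin markers the r was -0.419, with -0.920 in deeper and -0.170 in shallower libraries. The score also went with the number of genes detected (r = 0.637). In the 20 neuron-like cells the r was -0.045 with the pan-neuronal and -0.097 with the myelin markers. In the 12 astrocyte-like cells the r with the pan-neuronal markers was 0.513, but leaving out the 2 cells farthest from the median brought it to 0.0016. The points share the library protocol and the TPM scale, and the values are a description.

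Single members differed. In oligodendrocyte-like cells, 14 of the 17 neuronal members had a rho above 0 with the pan-neuronal score (median 0.615), led by Syp (0.835), Snap25 (0.804) and Syn2 (0.766). Syt11 (-0.467), Rims2 (-0.118) and Sv2a (-0.103) were the 3 below 0. Of the 11 general members, 7 were above 0, with a median of 0.058. Of 4391 other genes detected in at least 50% of all cells, 70.4% were above 0 there, with a median of 0.152. In astrocyte-like cells the neuronal members also numbered 14 of 17 above 0, with a median of 0.156. Of the other genes there, 61.4% were above 0, with a median of 0.091. In neuron-like cells 8 of 17 neuronal members were above 0 (median -0.013), against 58.3% of the other genes (median 0.054).

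**Figure D5:**
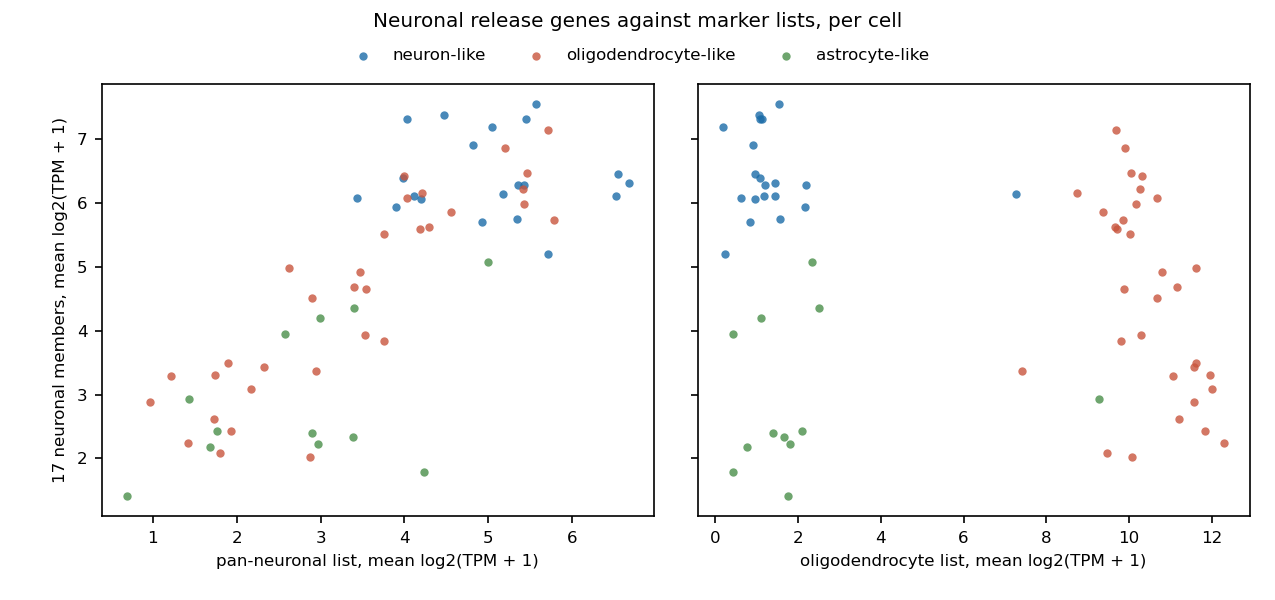
Mean log2(TPM + 1) of the 17 neuronal release genes against that of the 12 pan-neuronal markers (left) and of the 12 oligodendrocyte markers (right), 1 point per cell, by cluster. Oligodendrocyte-like points lie higher where the pan-neuronal list is higher (r = 0.878, n = 32), and neuron-like points show no such slope (r = -0.045, n = 20).

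Oligodendrocyte-like libraries with a second marker list, 13 of 32, had a median neuronal sum of 5867 TPM, against 3401 TPM in the other 19. Snap25 had medians of 2922 and 219 TPM in these libraries, and Syp had 126 and 7.88 TPM. Syt11 had 960.4 and 1284 TPM, and Vamp3 42.2 and 70.7 TPM. Of the 13 libraries, 10 held the pan-neuronal list and 5 the astrocyte list. The pan-neuronal score went with the neuronal members in this cluster (r = 0.878). The higher neuronal sum, Snap25 and Syp were therefore in part built in by the split and are not separate support for that relation. In the 19 libraries without a second list Snap25 still ranged from 2.46 to 4239 TPM. Whether these libraries hold more than 1 cell was not tested.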

How the data were processed

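Single-cell RNA was amplified in the Fluidigm C1 system and made into Nextera XT libraries, per the labels' protocols. Bowtie2, RSEM and the build mm9 are named in the submitters' processing notes, without versions or roles. The deposited values carry an expected count header, but they sum to the same total in each cell, as TPM do, so they were read as such and no count model was fitted. Transcripts were summed per symbol (30970 transcripts, 1037 without a symbol left out, 48 symbols restored through the accession).

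The 70 members, their classes and all lists were chosen with earlier results of these data known. Snap91 was set apart from the SNAP family after the values were available. Named were the members detected in at least 50% of cells, the leading member and leading general member of each family, and the 10 members with the largest difference in each comparison. The results of some genes are not reported here, and figures leave their rows out.

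A gene was detected at 1 TPM or more. Cells were clustered without the members by Ward linkage on log2(TPM + 1). The 1000 genes with the highest variance, among those reaching 1 TPM in at least 10% of cells, were reduced to 10 principal components, and 2 to 6 clusters were tried, keeping the number with the best silhouette. Names came from the marker list with the largest mean difference, if at least 3 of its markers were in at least 50% of its cells. A library held a second marker list when its score reached the 25th percentile of the other cluster's cells. No doublet caller was run. Depth was estimated from the value of 1 read: 65.5% to 78.9% of low values lay within 10% of it. The correlation between cells was 0.399 to 0.674 and no library was treated as a duplicate. The depth estimate was tested on simulated libraries, and the cluster difference on values with a known change put in. Other detection thresholds, pseudocounts, filters, depth classes and clusterings were tried, with the effects given at the end. Promoters are RefSeq windows on GRCm38.p6, a build other than the submitters'. Tools were numpy 2.4.6, pandas 2.3.3, SciPy 1.17.1, scikit-learn 1.9.0 and matplotlib 3.10.9.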

Additional observations from a re-analysis of the deposited data

How the results depend on the processing

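Of the values recomputed under other settings, 90 kept their direction and stayed within the limits set (1.5 times for a count, 1 SD over cells for a median, the 95% interval for r), 13 went past them, and 1 turned its sign. Within those limits the r with the myelin list still went from -0.419 to -0.170 in shallower oligodendrocyte-like and from -0.097 to -0.337 in deeper neuron-like libraries. The setting with Syt11 as a general member was chosen after seeing the data. With detection at 10 TPM, 17 members and 5 general members were in at least 50% of cells, and at 5 TPM 7 general members were. The synaptotagmin share was 19.1% with Syt11 as general. With a pseudocount of 10, 15 members were higher in neuron-like than in oligodendrocyte-like cells, 2 were lower, and 20 were higher than in astrocyte-like cells. The members higher in astrocyte-like than in neuron-like cells numbered 4 in shallower libraries, 3 without the libraries with a second marker list, 2 with the members in the clustering and 4 with 2000 variable genes. In oligodendrocyte-like cells the deeper libraries gave an r of 0.960 with the pan-neuronal and -0.920 with the myelin list, and in neuron-like cells the r with the myelin list was 0.022 without the 2 farthest cells. The cause was not tested. Apart from those at a pseudocount of 10, no count under another setting is given with a share over all genes. With 500 variable genes no neuron-like cluster formed, and with 2 deeper astrocyte-like cells that comparison was not run on deeper libraries. No paired analysis was possible because the labels give 1 group. At these depths a gene listed at 0 is not shown to be absent.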
